A study of Mus musculus with 8 samples.

Results

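Smooth muscle genes are described here in the liver of aged obese mice, as 10 of the 56884 genes in the count tables: Acta2, Actg2, Tagln, Cnn1, Myh11, Mylk, Smtn, Lmod1, Des and Synm. They were selected on earlier results of the same comparison, DIO + DHA against DIO, so their differences between the groups are given as a description with errors and without a test. The labels give 8 libraries from livers of female C57BL/6J mice, 1 per mouse, with 3 in the DIO group (replicates 1, 4 and 5) and 5 in the DIO + DHA group (replicates 1, 2, 4, 5 and 6). All mice had eaten a high-fat diet that drew 45% of its energy from lipid for 4 months before the groups were formed. DIO mice then stayed on that diet until 18 months of age. For DIO + DHA mice, a fish oil concentrate holding 683.4 mg of docosahexaenoic acid (DHA) and 46.7 mg of eicosapentaenoic acid per g took the place of 15% by weight of the dietary lipid over the same period, and the DIO diet received the tocopherols of that concentrate as well. No group without the high-fat diet was analysed here, and the labels put the 8 libraries in 1 batch.

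Smooth muscle shortens when calcium and calmodulin activate myosin light chain kinase, which phosphorylates the regulatory light chain of a smooth muscle myosin that pulls on actin filaments. Blood vessels are built around α-actin (Acta2), whereas the wall of the gut and other hollow organs adds γ-actin (Actg2), and both share transgelin, calponin, smooth muscle myosin heavy chain, smoothelin and leiomodin. Desmin and synemin make the intermediate filaments that tie dense bodies together, but they do the same for the Z-discs of skeletal and heart muscle. In a healthy liver these genes are used mainly by the muscle layer of arteries and portal veins, and desmin also by quiescent stellate cells, the vitamin A-storing pericytes of the sinusoids that take up Acta2 when they become myofibroblasts.

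Many smooth muscle genes are switched on by serum response factor, which binds the CArG box, a 10-base element with CC at one end, GG at the other and 6 bases of A or T between them. The promoter table of RefSeq (assembly GRCm38.p6, 250 bases before to 50 after each start) held 7 of the 10 genes and none for Actg2, Tagln and Myh11. No exact box was found in those 7 windows, against 1.63% of all 32851 windows. Since the element reads as the same pattern on either strand, 1 search covered both. With 1 of the 6 middle bases allowed to be C or G, Acta2 and Synm held a box, against 9.98% of all windows, and Acta2 held 2 of them, against 0.822% of all windows. Their stretches are shown because both genes stood higher in every DIO + DHA library, beside that of Acta1, the skeletal muscle actin that the results return to. Capitals mark the boxes, exact or with 1 such base.

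Acta2, chr19:34255378-34255477, minus strand: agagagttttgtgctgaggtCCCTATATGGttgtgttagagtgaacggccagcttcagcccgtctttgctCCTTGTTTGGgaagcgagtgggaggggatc

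Synm, chr7:67759952-67759992, minus strand: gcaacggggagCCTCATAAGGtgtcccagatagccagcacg

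Acta1, chr8:123894819-123895000, minus strand: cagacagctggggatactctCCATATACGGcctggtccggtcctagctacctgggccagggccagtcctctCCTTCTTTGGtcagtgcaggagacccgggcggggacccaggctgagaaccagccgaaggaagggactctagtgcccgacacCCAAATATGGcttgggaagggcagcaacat

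In Acta2 the boxes began 84 and 34 bases before the start site, and in Synm the box began 239 bases before it. Of the 3 boxes of Acta1, the one beginning 73 bases before the start was exact. A match to these letters is a description of the sequence and no evidence of binding.

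Total counts ran from 1723800 (DIO replicate 1) to 5690347 (DIO replicate 5), with a median of 4495644. At that depth 1 count was worth 0.177 to 0.563 CPM (the count scaled to a common library size), so the 10 genes, most of them at a few CPM, rested on few reads. Genes were left out of testing when, in both groups, over 50% of the libraries had fewer than 5 counts. Of the 10, 8 passed, Cnn1 and Lmod1 did not, and Actg2 and Synm passed only through the DIO + DHA group. CPM values use library sizes scaled by TMM, log2 fold changes are DIO + DHA minus DIO from edgeR with their standard error, and the ratio of summed counts carries a 95% exact interval that covers counting error alone. In whole-liver RNA, a change in the number of cells of a type and a change in RNA per cell cannot be told apart.

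Across the 12412 genes tested, 7.89% passed an adjusted p under 0.05 as higher in DIO + DHA and 7.28% as lower. For 9.54% of the genes all DIO + DHA libraries exceeded all DIO libraries, and for 8.88% all were below them. Among the 10 smooth muscle genes, 4 passed that threshold as higher (Des, Synm, Actg2 and Acta2) and 0 as lower, and 3 had groups that did not overlap (Des, Synm and Acta2). Of the 4, Actg2 was past the threshold in 6 of the 16 alternatives that tested it, and not with DESeq2, limma-voom or the replicate number as a block. Because the genes were chosen on this contrast, nothing is read from those counts. The median log2 fold change was 1.10 over the 8 tested members and 0.0011 over all genes. Nothing is read from that gap either, since the choice of the genes favours it. Actg2 and Synm also passed the filter only through DIO + DHA.

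**Figure D1:**
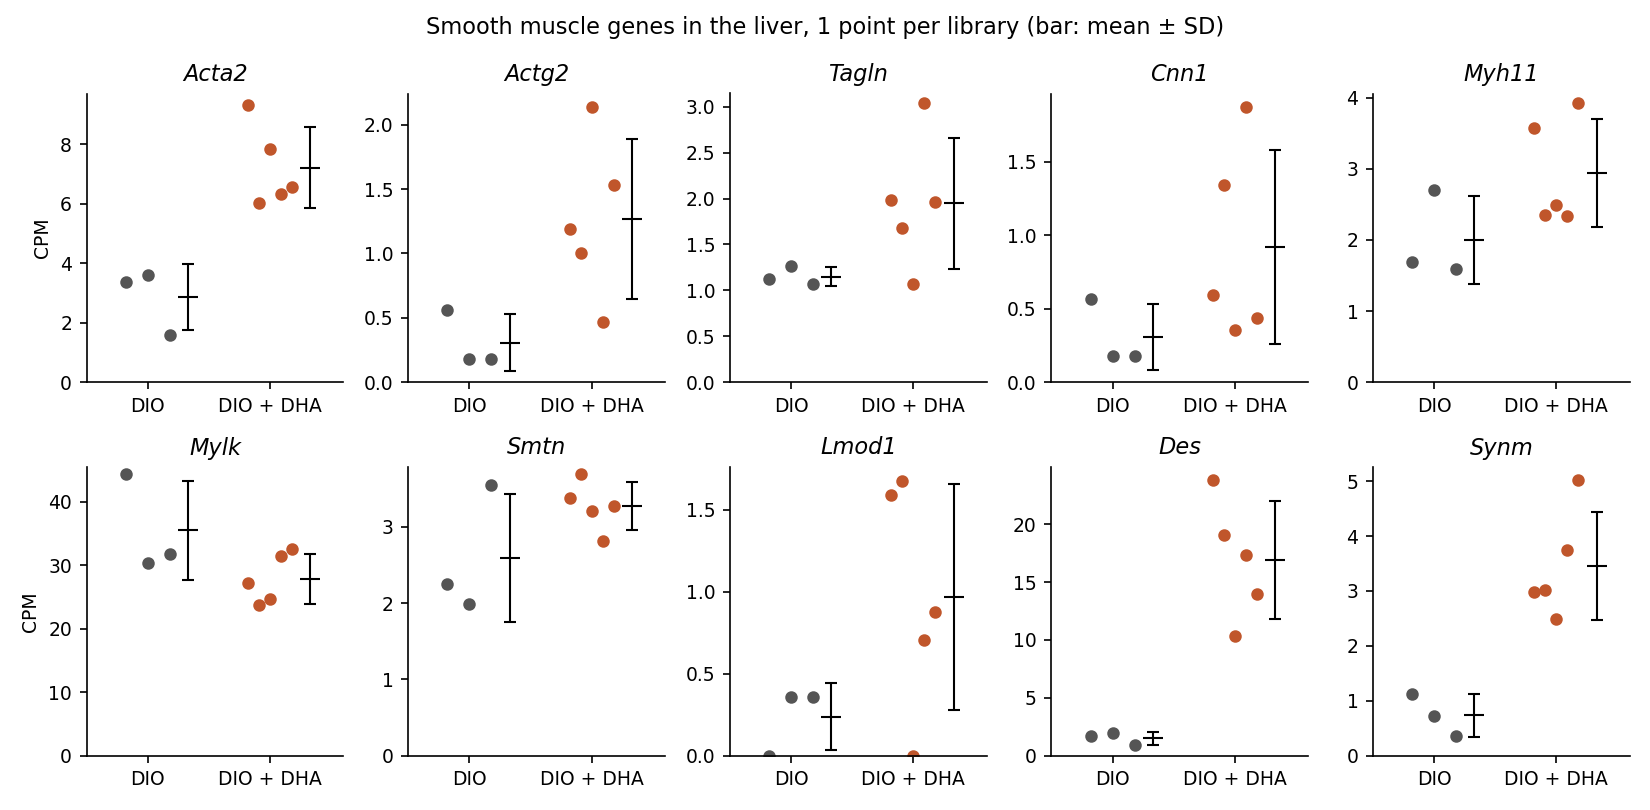
Level of each of the 10 smooth muscle genes in CPM (vertical axis, starting at 0), with 1 point per library for 3 DIO and 5 DIO + DHA mice and a bar for the group mean ± SD. Des, Synm and Acta2 show separated groups, the other 7 genes overlap, and Mylk alone has its higher mean in DIO.

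Acta2 encodes the smooth muscle α-actin of vessel walls and myofibroblasts (chr19:34218490-34232990 in GRCm39, the build of the counts). It stood at 3.38, 3.61 and 1.597 CPM in DIO replicates 1, 4 and 5, from 6, 20 and 9 counts. In DIO + DHA replicates 1, 2, 4, 5 and 6 it stood at 9.32, 6.03, 7.85, 6.32 and 6.55 CPM, from 47, 18, 22, 27 and 30 counts. The lowest DIO + DHA library was thus above the highest DIO library. Means were 2.86 ± 1.10 CPM in DIO (SD, n = 3) and 7.22 ± 1.37 CPM in DIO + DHA (SD, n = 5), a log2 fold change of 1.41 (SE 0.29) and a ratio of summed counts of 2.71 (1.86 to 4.04). Among the 5 DIO + DHA libraries the coefficient of variation was 18.9%, where counting alone would give 18.6%.

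Actg2, the γ-actin of visceral smooth muscle (chr6:83489887-83513247), was close to the limit of detection. Each DIO library held 1 count, and the DIO + DHA libraries held 6, 3, 6, 2 and 7. In CPM the highest DIO library, the shallow replicate 1, reached 0.563 and the lowest DIO + DHA library, replicate 5, was at 0.468, so the groups overlapped. Means were 0.307 ± 0.222 CPM in DIO (SD, n = 3) and 1.27 ± 0.621 CPM in DIO + DHA (SD, n = 5). With 3 counts against 24, the ratio of summed counts was 5.27 with an interval from 1.6 to 27.3, and the log2 fold change was 2.25 (SE 0.76).

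At this depth the balance of the visceral and the vascular actin could not be told apart between the groups. Actg2 gave 0.0857 counts per Acta2 count in DIO (interval 0.0169 to 0.272) and 0.167 in DIO + DHA (0.103 to 0.258), and those intervals overlapped. The muscle actins are much alike in coding sequence, with 84.17% of bases shared between Acta2 and Actg2, 85.41% between Acta2 and Acta1 and 84.97% between Actg2 and Acta1. Their transcript ends, from which these 3′-enriched reads mostly come, were not alike: 0 of the 421 windows of 80 bases (the read length) in the last 500 bases of Acta2 or Actg2 occurred in another of the 6 actin transcripts. Actin counts still need care, since the cytoplasmic actin Actg1, which nearly every cell uses, was listed at only 0.563 to 3.57 CPM against 420 to 595 CPM for Actb.

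Transgelin (Tagln, chr9:45840917-45847356) binds actin filaments and is among the earliest genes of the smooth muscle lineage. It was at 1.13, 1.26 and 1.06 CPM in the 3 DIO libraries and at 1.98, 1.68, 1.07, 3.04 and 1.97 CPM in the 5 DIO + DHA libraries. DIO + DHA replicate 4, with 3 counts, lay within the DIO range, and the other 4 libraries above it. The log2 fold change was 0.79 (SE 0.46) and the ratio of summed counts 1.76 (0.949 to 3.42). Exons of the opposite-strand genes Pcsk7 and Gm48529 cover 67.9% of the Tagln exon bases, Pcsk7 alone 23.2% of its last 500 bases, and counting without strand left out reads in shared stretches.

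Calponin 1 (Cnn1, chr9:22010512-22020926), which slows the myosin ATPase on actin, had 1 count in each DIO library and 3, 4, 1, 8 and 2 in the DIO + DHA libraries. It was not tested. Its 3 counts against 18 gave a ratio of 3.95 with an interval from 1.15 to 20.9, and the groups overlapped in CPM. Leiomodin 1 (Lmod1, chr1:135252545-135295803), which starts new actin filaments in smooth muscle, was not tested either. Its counts were 0, 2 and 2 in DIO and 8, 5, 0, 3 and 4 in DIO + DHA, where replicate 4 had none, and its ratio was 3.29 (1.10 to 13.2).

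Myh11, the smooth muscle myosin heavy chain and the marker most restricted to mature smooth muscle (chr16:14012399-14109236), was at 1.69, 2.705 and 1.597 CPM in DIO. It was at 3.57, 2.35, 2.50, 2.34 and 3.93 CPM in DIO + DHA. DIO replicate 4 lay above 3 of the 5 DIO + DHA libraries. Means were 2.00 ± 0.615 CPM in DIO (SD, n = 3) and 2.94 ± 0.756 CPM in DIO + DHA (SD, n = 5), with a log2 fold change of 0.54 (SE 0.36), or 0.89 without DIO replicate 4, and a ratio of summed counts of 1.46 (0.915 to 2.40).

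Smoothelin (Smtn, chr11:3467523-3490612), a protein of the contractile filaments, held 2.25, 1.98 and 3.55 CPM in DIO and 3.37, 3.69, 3.21, 2.81 and 3.28 CPM in DIO + DHA. Only the pair of DIO libraries 1 and 4 stood below the DIO + DHA range. The log2 fold change of 0.27 (SE 0.33) rested on which DIO library was present, at 0.67 without replicate 5 and 0.04 without replicate 4. The ratio of summed counts was 1.20 (0.786 to 1.87).

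Mylk encodes myosin light chain kinase, the enzyme that starts contraction, and also a long form of non-muscle cells, which reads from the 3′ end do not separate (chr16:34565580-34822790). It took the most counts of the 10 genes, at 44.4, 30.3 and 31.8 CPM in DIO and 27.2, 23.8, 24.6, 31.4 and 32.5 CPM in DIO + DHA. It was also the one member with the lower mean in DIO + DHA, 27.9 ± 3.93 CPM (SD, n = 5) against 35.5 ± 7.78 CPM (SD, n = 3). The log2 fold change was -0.26 (SE 0.13), and -0.13 without DIO replicate 1, the shallowest library and the highest for Mylk. Its ratio of summed counts was 0.866 (0.762 to 0.984).

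Desmin (Des, chr1:75336973-75345223), the muscle intermediate filament, differed most among the 10. It was at 1.69, 1.98 and 0.887 CPM in DIO, from 3, 11 and 5 counts. In DIO + DHA it was at 23.8, 19.1, 10.3, 17.3 and 14.0 CPM, from 120, 57, 29, 74 and 64 counts. No DIO library came near the lowest DIO + DHA library, replicate 4. The means were 1.52 ± 0.567 CPM in DIO (SD, n = 3) and 16.9 ± 5.10 CPM in DIO + DHA (SD, n = 5), the log2 fold change 3.53 (SE 0.30) and the ratio of summed counts 11.9 (7.52 to 20.0). Its coefficient of variation among DIO + DHA libraries was 30.2%, above the 12.1% of counting alone. The opposite-strand gene Gm15179 covers 44.2% of its last 500 bases, so part of its reads may have been left out in every library.

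Synemin (Synm, chr7:67379908-67409490), which joins desmin filaments to the membrane skeleton, had 2, 4 and 2 counts in DIO and 15, 9, 7, 16 and 23 in DIO + DHA. As CPM these were 1.13, 0.721 and 0.355 against 2.98, 3.02, 2.50, 3.75 and 5.02, with no overlap. Means were 0.734 ± 0.385 CPM in DIO (SD, n = 3) and 3.45 ± 0.985 CPM in DIO + DHA (SD, n = 5). The log2 fold change was 2.45 (SE 0.47) and the ratio of summed counts 5.76 (2.77 to 13.9).

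**Figure D2:**
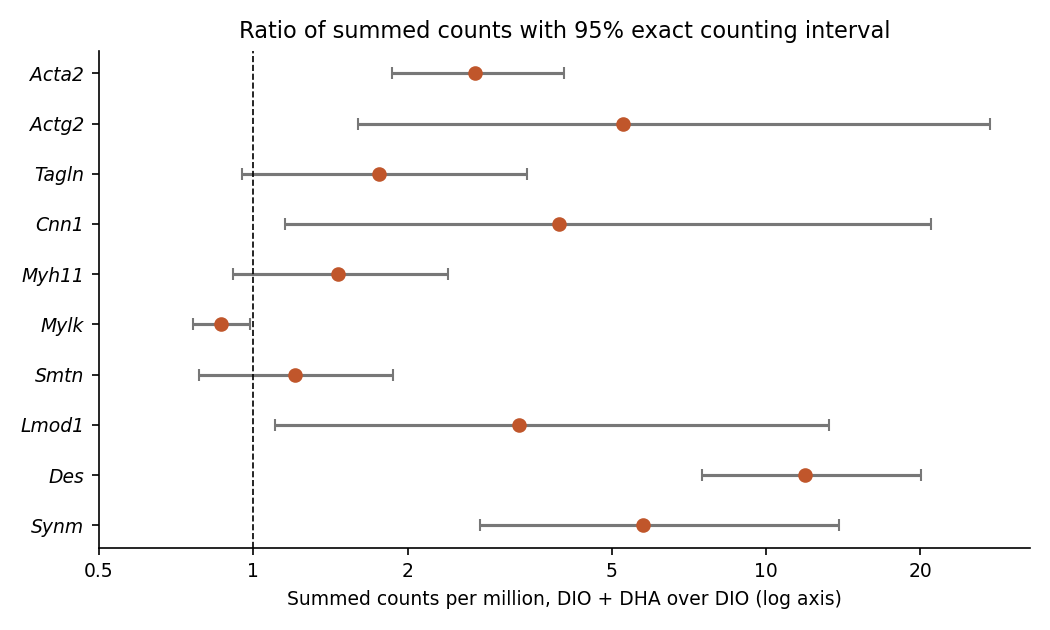
Ratio of summed counts scaled by library size, DIO + DHA over DIO (horizontal log axis), for the 10 smooth muscle genes, with 95% exact counting intervals and a dashed line at 1. Des has the highest ratio at 11.9, Mylk the lowest at 0.866, and the intervals of Tagln, Myh11 and Smtn include 1. The intervals leave out the spread between mice, so whether they include 1 is no test. Those of Mylk, Actg2, Cnn1 and Lmod1 exclude 1 although the libraries of these genes overlap between the groups.

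The proportion of Des to Acta2 is given as a description, since both genes were chosen on this contrast and their fold changes set it. Des gave 0.5, 0.55 and 0.556 counts per Acta2 count in the DIO libraries and 2.55, 3.17, 1.32, 2.74 and 2.13 in the DIO + DHA libraries, without overlap. Summed over libraries the ratio was 0.543 (0.293 to 0.975) in DIO and 2.39 (1.96 to 2.92) in DIO + DHA. The intervals of summed ratios cover counting error alone, not the spread between mice. Myh11 gave 0.5, 0.75 and 1 counts per Acta2 count in the DIO libraries and 0.383, 0.389, 0.318, 0.370 and 0.6 in the DIO + DHA libraries, and both these values and the intervals of the summed ratios, 0.771 (0.449 to 1.31) and 0.417 (0.303 to 0.567), overlapped between the groups. Smtn gave 0.667, 0.55 and 2.22 counts per Acta2 count in DIO and 0.362 to 0.611 in DIO + DHA, which overlapped as well. Its summed ratio of 1 (0.608 to 1.65) in DIO against 0.444 (0.326 to 0.601) in DIO + DHA rested on DIO replicate 5, without which the DIO ratio was 0.577. These are ratios of counts within libraries, not divided by gene length because reads come from transcript ends.

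Both were also set against the skeletal muscle actin, Acta1, which was at 11.5 to 12.1 CPM in DIO and 523 to 579 CPM in DIO + DHA. Per 100 Acta1 counts there were 7.69 to 16.4 Des counts in DIO and 1.92 to 4.11 in DIO + DHA, and 13.8 to 29.9 Acta2 counts in DIO and 1.15 to 1.61 in DIO + DHA. Of all counts on the 4 muscle actin genes (Acta1, Acta2, Actg2 and the cardiac Actc1), Acta2 took 21.4%, 22.7% and 11.5% in the DIO libraries. Its exact 95% interval was widest in the shallow replicate 1, from 8.30% to 41.0%. In the DIO + DHA libraries Acta2 took 1.57%, 1.13%, 1.42%, 1.14% and 1.19%. The share of Actg2 was 1.14% to 3.57% in DIO, from 1 count each, and 0.0846% to 0.387% in DIO + DHA. The exact 95% intervals of those Actg2 shares, with upper bounds of 6.17% to 18.3% in DIO and lower bounds of 0.0288% to 0.0904%, reached into those in DIO + DHA. So Acta2 was at a higher CPM in DIO + DHA but formed a smaller part of the muscle actin counts, while for Actg2 the intervals of single libraries overlapped at this depth.

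**Figure D3:**
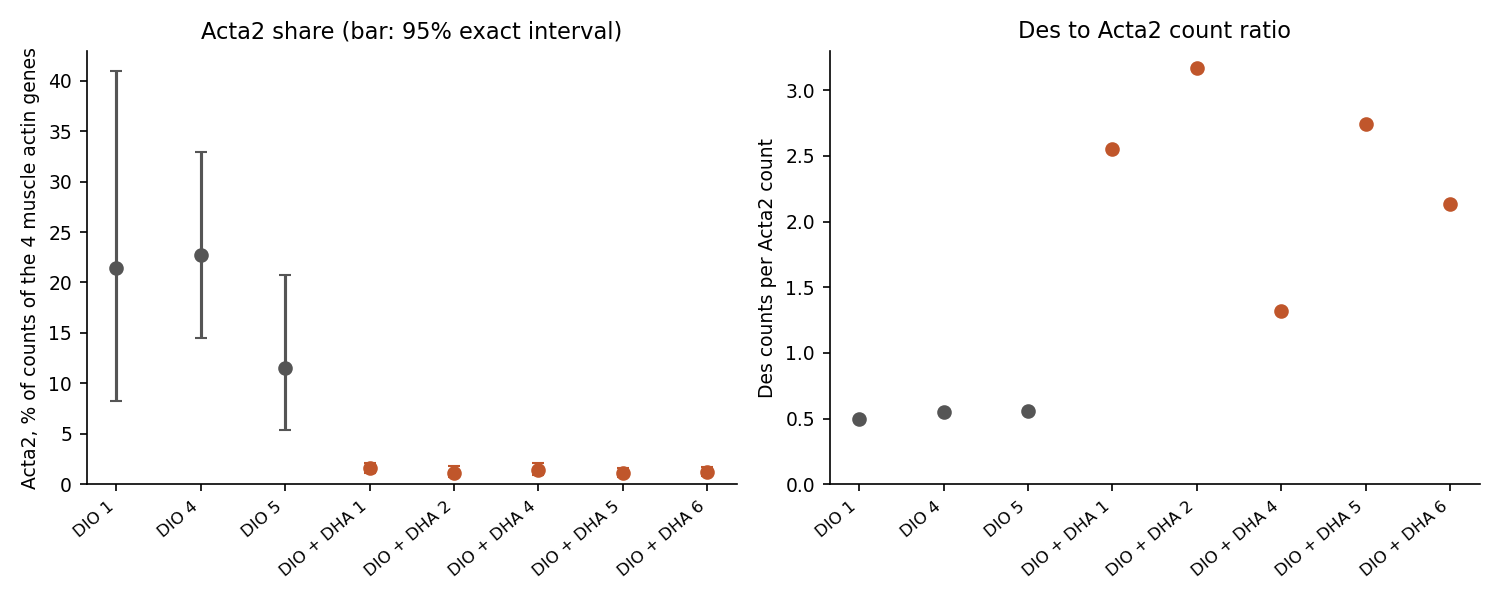
Left, Acta2 as a percentage of the counts of 4 muscle actin genes in each library, with 95% exact intervals, and right, Des counts per Acta2 count in each library (both axes start at 0). The Acta2 share is 11.5% to 22.7% in the 3 DIO libraries and below 2% in the 5 DIO + DHA libraries, while the Des ratio is at most 0.556 in DIO and at least 1.32 in DIO + DHA.

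A further 66 genes that work with these 10 were put in 6 lists by role and tested. The lists were written with results of these libraries known, so their counts are no independent evidence. Of the 54 tested with edgeR's quasi-likelihood test, 11 (20.4%) were higher in DIO + DHA and 3 (5.56%) lower, where all genes gave 7.89% and 7.28%. The median log2 fold change of the 54 was 0.11, against 0.0011 over all genes. Of the 11 higher genes, 4 (Synpo2, Nexn, Pdlim3 and Dtna) had passed the filter on low counts only through the DIO + DHA group, where they are high, so they are given as values without a p. Nothing is read from the 20.4% or from that median.

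Among 11 filament and cross-linker genes, 4 were higher and 1 lower. Tropomyosin 1 (Tpm1), which lies along the actin filament, rose from 25.6 ± 2.31 CPM in DIO (SD, n = 3) to 159 ± 15.4 CPM in DIO + DHA (SD, n = 5), a log2 fold change of 2.65 (SE 0.11, edgeR adjusted p = 1.03e-28). Tropomyosin 2 (Tpm2) rose by 2.39 (SE 0.11, edgeR adjusted p = 2.77e-26), with 19.1 to 21.6 CPM in DIO and 103 to 117 CPM in DIO + DHA. Tpm1 and Tpm2 serve all 3 kinds of muscle. The regulatory light chain Myl9, the substrate of the kinase, rose by 1.73 (SE 0.32, edgeR adjusted p = 3.12e-05) from 1.75 ± 0.174 CPM in DIO (SD, n = 3) to 6.01 ± 1.16 CPM in DIO + DHA (SD, n = 5). Caldesmon (Cald1), which restrains actin and myosin, rose by 0.38 (SE 0.07, edgeR adjusted p = 7.25e-05). The essential light chain Myl6 was at 122 ± 4.88 CPM in DIO (SD, n = 3) and 132 ± 8.49 CPM in DIO + DHA (SD, n = 5), a log2 fold change of 0.12 (edgeR adjusted p = 0.376). α-Actinin 1 (Actn1), the cross-linker of dense bodies and of non-muscle cells, fell by 0.74 (SE 0.22, edgeR adjusted p = 0.0119), a call that was lost without DIO replicate 5 (adjusted p = 0.196), with the Wald test of DESeq2 and at limma-voom B above 0.

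None of the 10 tested genes of the phosphatase, kinase and cGMP list, the part that switches contraction off and on, was called by edgeR, DESeq2 or limma-voom. Ppp1cb, the catalytic subunit of myosin phosphatase, differed by -0.03 (SE 0.11), Rock1, a kinase that inhibits it, by -0.20 (SE 0.14), and Ppp1r12a, its targeting subunit, by 0.05 (SE 0.15). At an unadjusted p under 0.05 edgeR gave 0 genes of this list as well.

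Serum response factor and its partners gave 1 call among 7 tested genes. Mef2c, a transcription factor of all muscle lineages and of endothelium, rose by 1.19 (SE 0.30, edgeR adjusted p = 0.00274), from 5.63, 1.98 and 2.48 CPM in DIO to between 5.02 and 7.74 CPM, and its adjusted p was 0.0746 without DIO replicate 4. Srf itself stood at 2.80 ± 1.04 CPM in DIO (SD, n = 3) and 4.33 ± 1.18 CPM in DIO + DHA (SD, n = 5), a log2 fold change of 0.75 (SE 0.32, edgeR adjusted p = 0.116). Its coactivator Mrtfb and the TEAD-family transcription factor Tead1 differed by 0.37 (SE 0.19) and 0.43 (SE 0.24) without passing the test. Myocardin (Myocd), the coactivator restricted to smooth and heart muscle, had 0 counts in all 8 libraries, which together allow up to 0.0919 CPM.

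In the dense body, costamere and adhesion list, 3 genes were higher and 1 lower of 14 tested, and all 3 were genes that passed the filter only through DIO + DHA. Synaptopodin 2 (Synpo2), an actin bundler of all muscle, had 1 count in DIO and 29 in DIO + DHA, a ratio of 19.1 (3.17 to 780). Pdlim3, a partner of α-actinin at the Z-disc, was at 0.361 to 0.563 CPM in DIO and 3.97 to 5.24 CPM in DIO + DHA, a log2 fold change of 3.22 (SE 0.45). Nexilin (Nexn), an actin-binding protein of Z-discs and adhesions, was at 0.355 to 2.16 CPM in DIO and 5.16 to 12.4 CPM in DIO + DHA, a log2 fold change of 2.96 (SE 0.39). Palladin (Palld), an actin scaffold of stress fibres, fell by 0.33 (SE 0.09, edgeR adjusted p = 0.00673) from 84.1 ± 5.28 to 66.2 ± 6.59 CPM (SD, n = 3 and n = 5), and its adjusted p was 0.0583 without DIO replicate 4, and its call was lost at limma-voom B above 0. The adhesion genes Lpp and Pdlim5, also among the most counted of the list, differed by -0.03 (SE 0.13) and 0.08 (SE 0.13).

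Around desmin itself, 2 of 8 tested genes were higher and 1 lower. The chaperone Cryab, which protects desmin filaments, rose from 6.28 ± 0.874 CPM in DIO (SD, n = 3) to 28.4 ± 3.39 CPM in DIO + DHA (SD, n = 5), a log2 fold change of 2.14 (SE 0.17, edgeR adjusted p = 2.2e-15). Dystrobrevin α (Dtna), a link to the dystrophin complex, had 4 counts against 30, a ratio of 4.94 (1.74 to 19.3). It passed the filter only through DIO + DHA, so nothing is read from its call, which held in only 9 of the 16 alternatives that tested it. Hspb8, another small heat shock protein, fell by 0.43 (SE 0.08, edgeR adjusted p = 1.28e-05). Vimentin (Vim), the filament of mesenchymal cells, differed by -0.23 (SE 0.18, edgeR adjusted p = 0.461), and the linker plectin (Plec) by -0.10 (SE 0.15). The nuclear lamin gene Lmna, the second most counted of this list, differed by -0.22 (SE 0.10, edgeR adjusted p = 0.151).

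Channels and receptors were mostly too low to test. Of 10 genes, Kcnmb1, Cacna1c, Pln and Chrm2, which serve calcium and potassium currents, the calcium pump and cholinergic contraction, had 0 counts in all 8 libraries. Opposite-strand genes cover 64.7% of the Pln exon bases, where reads were not counted, so its 0 holds for the rest of the gene. The calcium pump Atp2a2 rose by 0.38 (SE 0.10, edgeR adjusted p = 0.00746), with an adjusted p of 0.12 without DIO replicate 5 and 0.0941 with the replicate number as a block, and the call was lost at limma-voom B above 0. The angiotensin receptor Agtr1a was at 47.4 ± 1.89 and 48.9 ± 2.18 CPM (SD, n = 3 and n = 5), and the adrenergic receptor Adra1a differed by 0.63 (SE 0.34) without passing the test.

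**Figure D4:**
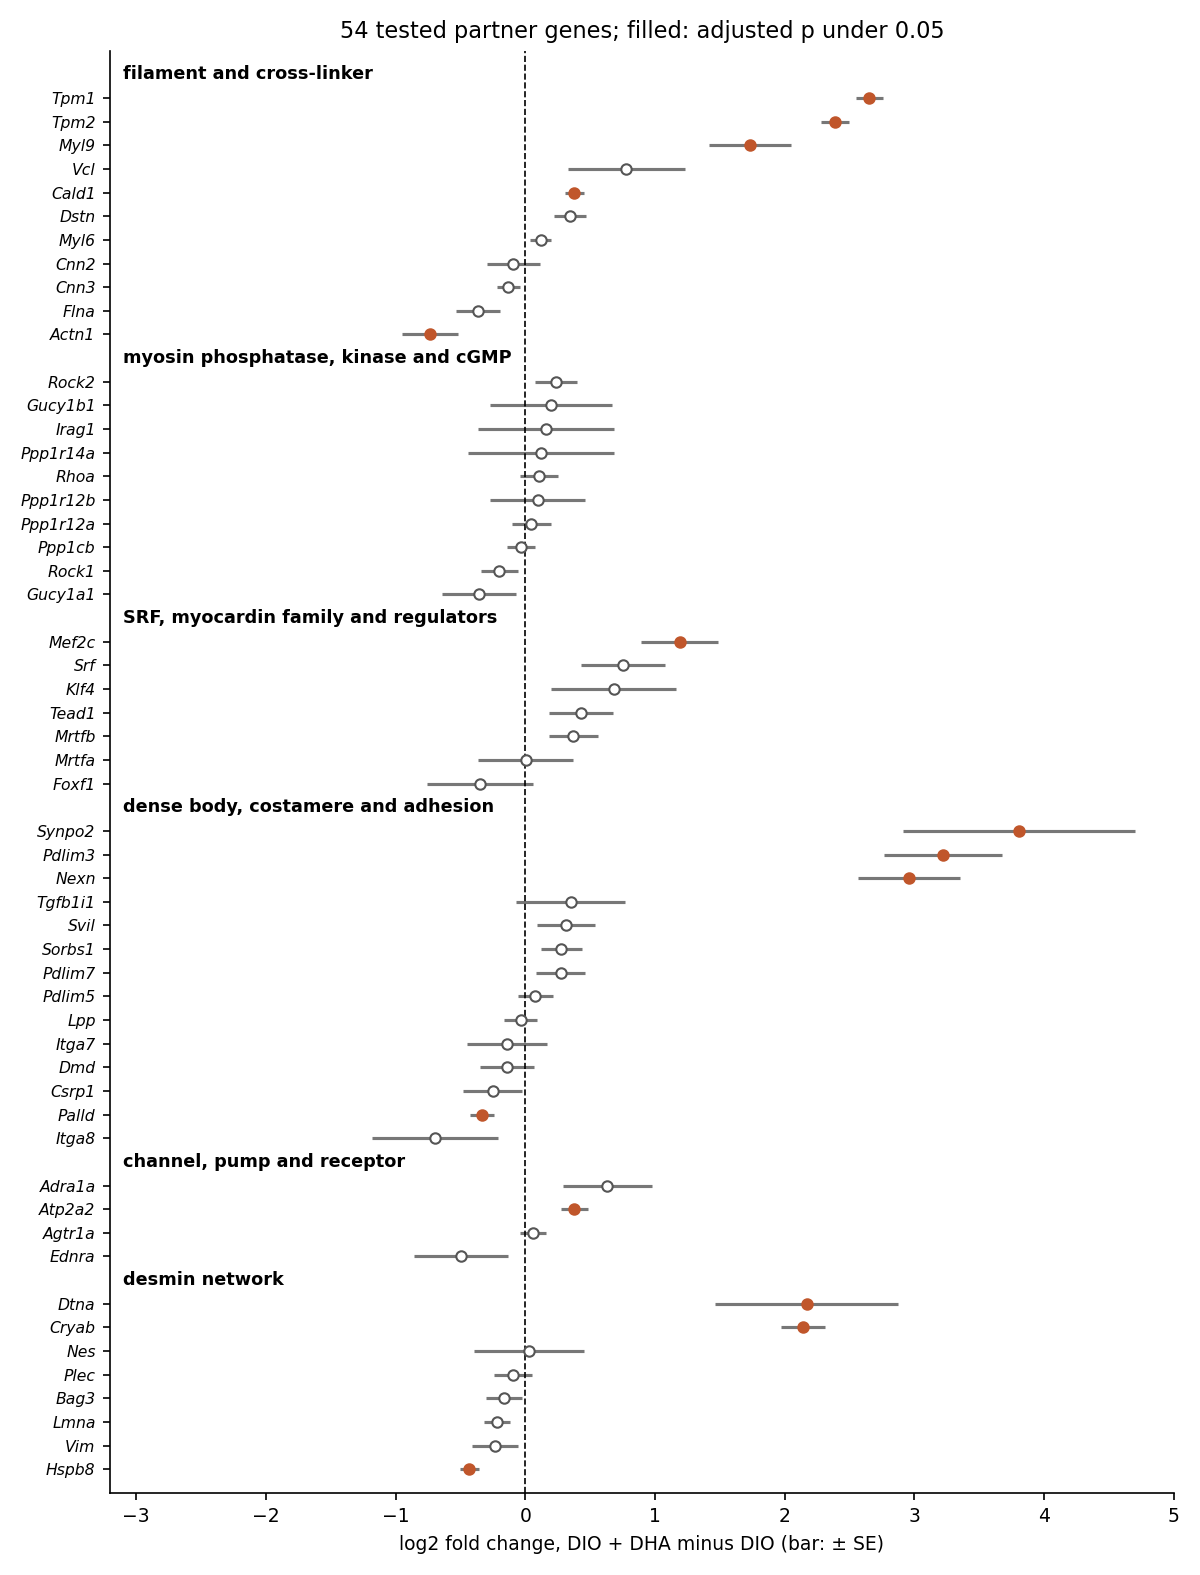
Log2 fold change (DIO + DHA minus DIO, horizontal axis) with its standard error for the 54 tested partner genes, grouped by role. Filled points mark the 14 genes with an adjusted p under 0.05. Of these, 11 lie to the right of 0 and 3 to the left, and the phosphatase, kinase and cGMP list holds none. Among the 11, Synpo2, Nexn, Pdlim3 and Dtna passed the filter on low counts only through DIO + DHA, so nothing is read from their fill.

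Markers of other cells in the same libraries were counted beside these results, and their part in them was not tested. Of the 45 marker genes that were higher, 23 had passed the filter only through the DIO + DHA group. All 25 skeletal muscle genes were higher in DIO + DHA (Tnnc2, on 2 counts against 24, in 11 of the 16 alternatives that tested it), 11 of them having passed the filter only through that group, and their summed level was 51.8 to 58.2 CPM in the DIO libraries and 1589 to 1730 CPM in the DIO + DHA libraries. The 2 with the most counts, Acta1 and Tnnt3, had log2 fold changes of 5.53 (SE 0.10) and 5.33 (SE 0.14). Of 10 heart muscle genes 3 were tested. Of these 1, Actc1, was higher (3 counts against 74), having passed the filter only through DIO + DHA. Tnnt2 and Myl4 differed by -0.17 (SE 0.50) and -1.07 (SE 0.61). The heart genes Myh6, Nppa and Nppb had 0 counts in all 8 libraries (Nppa with 61.5% of its exon bases shared with an opposite-strand gene). The summed level of the heart list was 3.37 to 3.61 CPM in DIO and 5.02 to 7.49 CPM in DIO + DHA, and without Actc1 it was 2.84 to 3.61 and 1.09 to 3.75 CPM.

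Epithelial and fat markers differed in the same libraries. Of 15 stratified squamous epithelium genes 8 were tested and 7 were higher (4 to 8 over the alternatives, with Sfn called in 3 of the 16 that tested it), 5 of them (Krt4, Krt13, Krt15, Lgals7 and Sprr3) having passed the filter only through DIO + DHA, with a summed level of 45.6 to 51.8 CPM in DIO and 105 to 118 CPM in DIO + DHA. Most of the summed level in DIO was Ly6d, with a mean of 41.3 CPM in DIO and 50.9 CPM in DIO + DHA. Krt13 and Krt4, the keratins of the lining of the mouth and oesophagus, had 0 and 1 counts in DIO and 306 and 508 in DIO + DHA. Ly6d, the most counted of the list, rose by 0.32 (SE 0.10, edgeR adjusted p = 0.0232), a call lost without DIO replicate 4, DIO replicate 5 or DIO + DHA replicate 6, with the block, with DESeq2 and at limma-voom B above 0, and its highest adjusted p over all alternatives was 0.131. The urothelium list (4 genes), the gastric list (9) and the uterus list (5) had 0 genes past the filter, with Upk1a, Upk2, Upk3a, Gkn1, Gkn2, Muc5ac, Hoxa10 and Hoxa11 at 0 counts throughout. The most counted genes of those lists were Muc6 (5 counts in DIO and 7 in DIO + DHA), Krt20 (0 and 1) and Ovgp1 (1 and 4). The intestinal genes Cdx1, Cdx2, Muc2 and Sis were at 0 as well, while Fabp2, also a liver gene, rose by 0.46 (SE 0.07, edgeR adjusted p = 2.09e-06). Lgals4, of the same list, differed by 0.17 (SE 0.17). In brown fat 5 of 6 tested genes were higher (4 to 5 over the alternatives, with Ucp1 and Cidea past the filter only through DIO + DHA), among them the respiratory chain genes Cox7a1 by 1.49 (SE 0.12) and Cox8b by 4.76 (SE 0.19). In the adipocyte list 3 of 4 were higher, with Cfd up by 4.47 (SE 0.24) and Car3 differing by -0.03 (SE 0.06). The other 2 called genes, Adipoq and Retn, passed the filter only through DIO + DHA, and Adipoq was past the threshold in 13 of 17 alternatives, but not without DIO replicate 4 or 5 or DIO + DHA replicate 6 or at limma-voom B above 0. Upk3b, a mesothelial gene and the only tested one of 6, had 0 counts in DIO and 30 in DIO + DHA, through which alone it passed the filter. Of the 5 that were not tested, Msln had 0 counts in DIO against 14 in DIO + DHA, Upk1b 0 against 5, Lrrn4 7 against 15, Gpm6a 10 against 15 and Wt1 5 against 1. The list summed to 0 to 2.705 CPM in DIO and 3.71 to 4.69 CPM in DIO + DHA, and 0 to 2 of its genes were called higher over the alternatives.

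In the stellate, pericyte, matrix and endothelial lists, 0 tested genes were higher by edgeR, by DESeq2 or by limma-voom, and 0 were higher at an unadjusted p under 0.05 in edgeR. Of 11 hepatic stellate genes, 0 were higher and 2 lower. Lrat, which esterifies vitamin A in these cells, fell by 1.03 (SE 0.25, edgeR adjusted p = 0.00183), from 7.28 to 11.3 CPM in DIO to 1.97 to 6.07 CPM in DIO + DHA, and its adjusted p was 0.0527 with the replicate number as a block. Colec11 fell by 0.28 (SE 0.10, edgeR adjusted p = 0.0339), and lost its call without DIO replicate 4 (0.173), DIO replicate 5 (0.346), DIO + DHA replicate 1 (0.0935) or DIO + DHA replicate 5 (0.076) and with the block (0.0687), DESeq2 (0.126) and limma-voom B above 0. Decorin (Dcn) and Ecm1, the most counted of the list, differed by -0.17 (SE 0.07) and -0.09 (SE 0.08). The summed stellate level was 488 to 535 CPM in DIO and 440 to 467 CPM in DIO + DHA.

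Of 5 tested pericyte and vascular mural genes 0 were higher and 1 lower. Of the 4 not tested, Notch3 had 4 counts in DIO against 14 in DIO + DHA, Higd1b 2 against 9, Cspg4 0 against 5 and Ndufa4l2 0 in both. Rgs5, a regulator of G-protein signals in pericytes, fell by 0.45 (SE 0.15, edgeR adjusted p = 0.0281), and its adjusted p was 0.145 or 0.0628 without DIO replicate 1 or 4, and 0.0512 or 0.0808 without DIO + DHA replicate 1 or 5. The call was also lost with DESeq2 (0.0827) and at limma-voom B above 0. Abcc9, a potassium channel subunit of mural cells, differed by -0.33 (SE 0.20, edgeR adjusted p = 0.316). The summed level of this list overlapped, at 40.8 to 51.2 CPM in DIO and 30.4 to 43.5 CPM in DIO + DHA. The matrix genes of activated stellate cells gave 0 higher and 2 lower of 7 tested, with the collagen gene Col1a2 at 6.80 ± 2.68 CPM in DIO (SD, n = 3) and 6.32 ± 1.70 CPM in DIO + DHA (SD, n = 5). Fibronectin (Fn1) fell by 0.42 (SE 0.07, edgeR adjusted p = 4.72e-06), and Timp1, which passed the filter only through DIO, had 17 counts against 6 and was past the threshold in 7 of the 16 alternatives that tested it. The summed level of the matrix list, 361 to 414 CPM in DIO and 284 to 319 CPM in DIO + DHA, was mostly Fn1, and without Fn1 it overlapped, at 23.1 to 30.8 and 21.8 to 26.6 CPM. Of 6 tested portal fibroblast genes 1 was higher (0 to 3 over the alternatives, with 3 in the unfiltered table and without DIO + DHA replicate 2, 4 or 6), the elastic fibre protein Fbln2, by 1.71 (SE 0.46), which passed the filter only through DIO + DHA and lost its call without DIO replicate 4 and at limma-voom B above 0, while Thy1 differed by -0.02 (SE 0.41) and Cd34 by 1.06 (SE 0.56). Clec3b had 1 count against 22 and Pi16 had 3 against 28, both below the filter, and the list summed to 4.50 to 6.92 CPM in DIO and 10.9 to 15.7 CPM in DIO + DHA. Endothelium had 0 genes higher and 2 lower of 8, Lyve1 by 1.08 (SE 0.16) and Clec4g by 0.59 (SE 0.10) on the log2 scale. Stab2 differed by -0.32 (SE 0.13, edgeR adjusted p = 0.0848). Of 8 hepatocyte genes, 1 was higher and 3 lower (1 to 3 lower over the alternatives, with Serpina1c called in 8 of 17), and the most counted, Alb and Ttr, differed by 0.12 (SE 0.06) and -0.02 (SE 0.06).

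**Figure D5:**
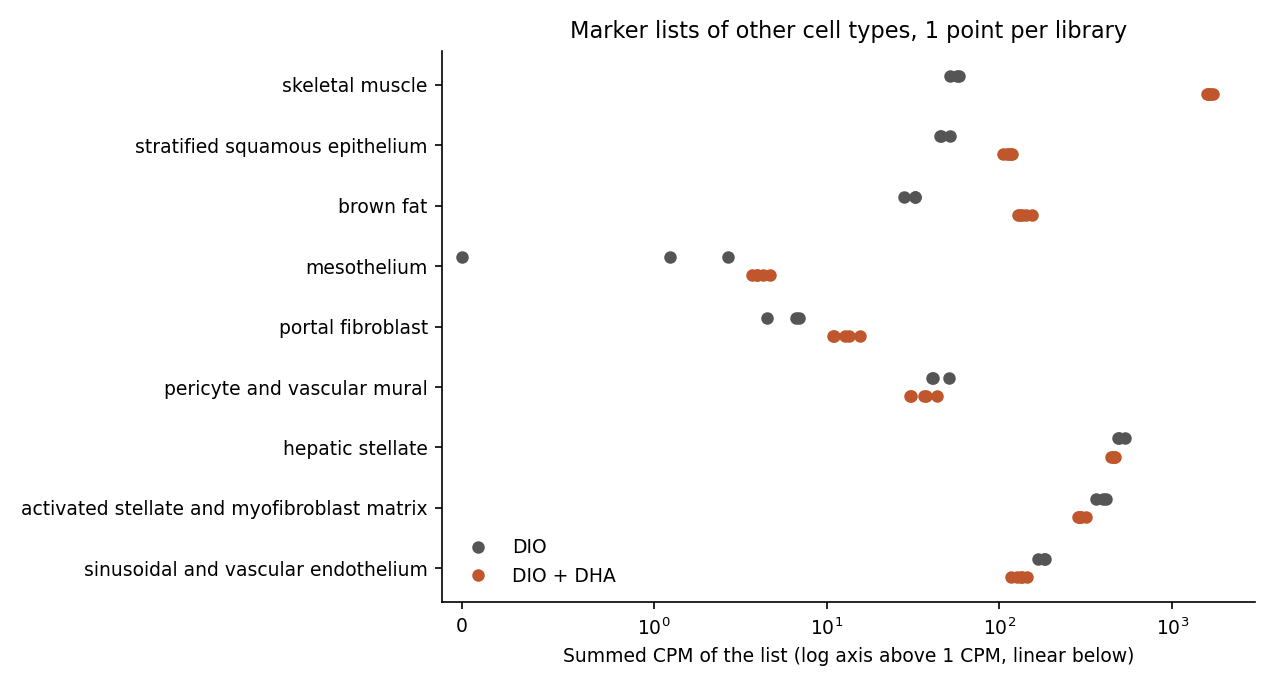
Summed CPM of 9 marker lists (horizontal axis, logarithmic above 1 CPM and linear below), 1 point per library. Skeletal muscle genes lie at 51.8 to 58.2 CPM in DIO and 1589 to 1730 CPM in DIO + DHA, while stellate, matrix and endothelial lists lie lower in DIO + DHA and the pericyte list overlaps. The matrix list is mostly Fn1, without which its groups overlap at 23.1 to 30.8 and 21.8 to 26.6 CPM.

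Genes were also ranked by how closely their level followed a member over the 8 libraries, as the root mean square difference of log2 CPM (prior count 2) after centring. This measure includes the difference between the groups. Nearest to Des were the slow-muscle troponin Tnni1 (0.29), the thin-filament ruler nebulin Neb (0.29), the uncoupling protein Ucp1 of brown fat (0.31), the skeletal muscle calcium release channel Ryr1 (0.32) and the Z-disc gene Cmya5 (0.33). Among those near Acta2 were Gm37691 (0.25), F3 (0.26), Nr0b2 (0.26) and Gm31583 (0.27), and nearest to Actg2 were Bex4 (0.16), Cav1 (0.23), Ankrd9 (0.28), Xk (0.29) and Mageh1 (0.29). Among the 8 tested members, the closest pair was Tagln and Myh11 (0.38) and the farthest Des and Mylk (1.72). Acta2 was about as near to Actg2 (0.44) as to Synm (0.44), and at 0.96 from Des.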

How the data were processed

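Liver poly(A) RNA of 8 mice was sequenced with an adapted SCRB-seq protocol, whose barcoded primer carries a unique molecular identifier and whose cDNA is enriched in 3′ ends. Whether identifiers were collapsed is not given in the sources used here. Per the methods and the submitters' processing notes, reads were checked with FastQC 0.11.8, trimmed, aligned to GRCm39 with STAR 2.7.9a and counted on GENCODE vM33 exons with featureCounts 1.6.0. Each deposited table holds raw read counts, not normalized by the authors. The files' command lines set neither strand nor overlap options, so unique reads were counted without strand.

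The members and all gene lists were chosen with earlier results of these data known. Symbols came from GENCODE vM39 (56323 of 56884 identifiers). Counts were TMM-normalized and tested with edgeR 4.0.16 (quasi-likelihood, robust dispersions, Benjamini-Hochberg, R 4.3.3) over the 12412 genes passing the study's filter, and the code was tested on simulated data. Named are all members, per partner list the 3 tested genes with the largest mean CPM and up to 2 called genes with the largest change, and per marker list the 2 with the largest mean CPM, plus further genes, called or not, chosen after their values were seen. Alternatives covered DESeq2 1.42.0, limma 3.58.1 (voom, prior proportion 0.01), other scalings and filters, a replicate block and leaving out each library.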

Additional observations from a re-analysis of the deposited data

How the results depend on the processing

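Over the 17 alternatives 3 to 4 members were past the threshold, from which nothing is read because they were chosen on this contrast and Synm and Actg2 passed the filter only through DIO + DHA. Actg2 was the one that dropped out, with DESeq2, limma-voom, the unfiltered table, the replicate block and without DIO replicate 4 or 5 or DIO + DHA replicate 1, 4 or 6, and filterByExpr left it untested. Scaling moved the median of all genes to between -0.017 and 0.0019 on the log2 scale. With limma-voom at B above 0, the study's own rule, 463 genes were higher and 397 lower (979 and 904 with edgeR), 1 partner gene was lower in place of 3, and 5 marker genes were lower in place of 10. The Wald test of DESeq2 gave 601 lower genes and 6 lower marker genes. Leaving out 1 library gave 6 to 11 lower marker genes, the fewest without DIO + DHA replicate 5, 9 to 12 higher and 2 to 3 lower partner genes. For these counts the cause was not tested. Groups share replicate numbers 1, 4 and 5, but same-numbered libraries deviated with correlations of -0.013, -0.013 and -0.011 and none matched its own number best, so the numbers were not taken as pairs. With the replicate number as a block, 3 members, 9 higher and 3 lower partner genes, and 817 higher and 721 lower genes were called. Depth limits Actg2, Cnn1 and Lmod1 most, with 3 to 4 counts each in DIO.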
